A study of Gallus gallus with 2 samples.

Results

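Fatty acid synthesis and fatty acid oxidation run on opposite sets of enzymes, and 9 genes of these routes were read in intestinal intraepithelial lymphocytes of broiler chickens. The genes were FASN, ACACA, SCD, ME1, ACLY and ELOVL6 for synthesis, ACSL1 for activation of fatty acids, and CPT1A and ACADL for oxidation. They were chosen by name: a probe was taken when its gene symbol, or the gene named in its description, was one of the 9, and this gave 9 of the 42034 probes that are no control spots, 1 for each gene, among 8851 genes named on the array. The rule for taking a probe uses names and no measured value, but the 9 genes themselves were chosen with earlier results of these data known.

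RNA from chickens given direct fed microbials (DFM, live bacteria added to feed) was compared with RNA from untreated control chickens, and both groups were broilers sampled at day 14. Total RNA of the 2 groups was hybridised together on each of 2 Agilent chicken arrays of 1 slide. The DFM RNA carried Cy5 on replicate 1 and Cy3 on replicate 2, and the control RNA carried the other dye. The labels describe replicate 2 as a biological replicate and also as the dye exchange of replicate 1. They do not give the bacteria or how many birds gave each RNA. Each p-value thus rests on 2 arrays, and the spread between them may be technical. In limma, the spread of a probe is moderated by a prior pooled over all tested probes (1 residual and 7.52 prior degrees of freedom).

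Intraepithelial lymphocytes are mostly T cells and sit within the epithelium of the intestine. In fatty acid synthesis, citrate from the mitochondria is split to acetyl-CoA in the cytosol, acetyl-CoA is carboxylated to malonyl-CoA, and fatty acid synthase joins these units with NADPH into palmitate, which is then elongated and desaturated. In oxidation, a fatty acid is activated to its CoA ester, carried into mitochondria on carnitine and shortened in rounds that start with an acyl-CoA dehydrogenase. Malonyl-CoA, the product of the first committed step of synthesis, inhibits the carnitine step, and in birds the liver is the main site of fatty acid synthesis.

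Of the 42034 probes, 18242 stood well above background for at least 1 group on each of the arrays and were tested. The limma fit called 2202 of them higher with DFM (12.1%) and 1918 lower (10.5%), 22.6% in either direction, at a Benjamini-Hochberg adjusted p of 0.05. The log2 ratios of the 2 arrays correlated across these probes at Pearson's r = 0.82 and Spearman's rho = 0.72, as a description across probes that share both arrays. No probe was saturated. Every direction below is relative to the average probe of an array, since each array's ratios were centred by loess. When the ratios were centred on the 10 spike-in probes instead, the median of all tested probes moved to 2.07 on the log2 scale (1.19 on replicate 1 and 2.94 on replicate 2), and the fit called 13962 probes higher and none lower, also none at an unadjusted p of 0.05. With each array centred on its median in place of loess, the calls were 109 higher and 8 lower.

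Detection differed between the members. ME1, ACLY, ELOVL6, ACSL1 and ACADL were well above background in all 4 channels (DFM and control on each array) and were tested. FASN, ACACA, SCD and CPT1A were not, and they have no test. SCD and CPT1A were well above background in none of the 4 channels, ACACA in 1 of them (DFM, replicate 1), and FASN in 1 of them (control, replicate 2). Levels below are log2 normalized signals of single channels, in which a probe is compared only with itself, because the brightness of different probes also depends on their sequence. In bulk RNA, fewer cells of a type and less RNA per cell cannot be told apart.

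**Figure D1:**
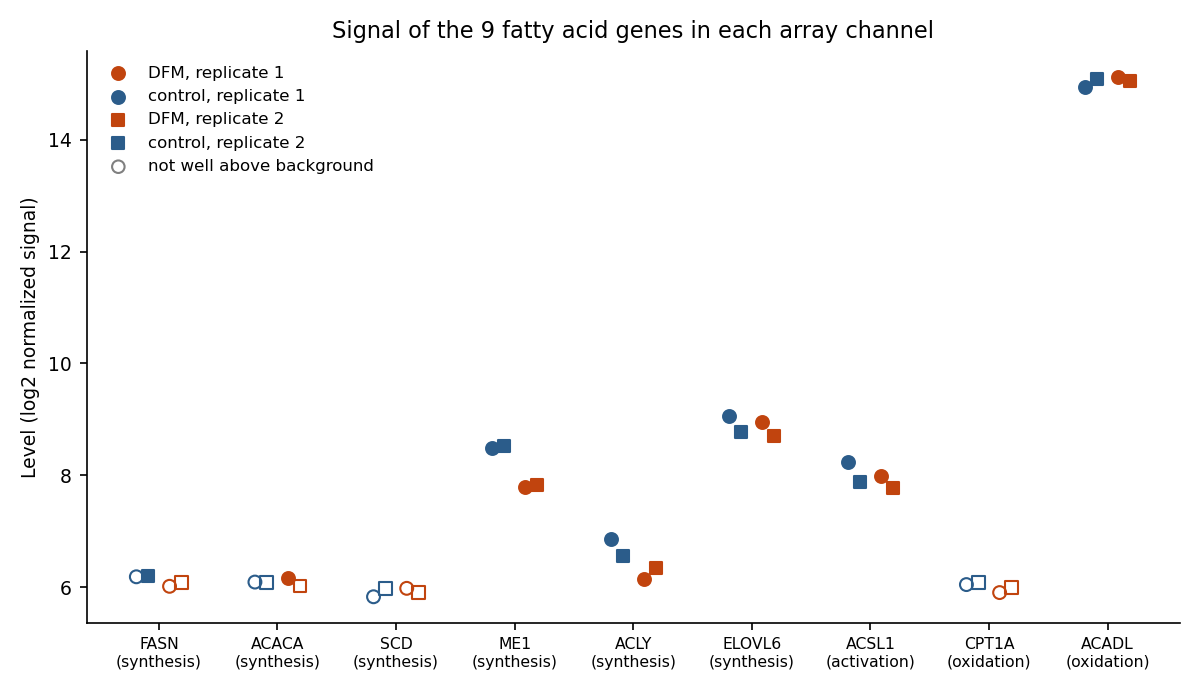
Level of each of the 9 members (log2 normalized signal) in the DFM (orange) and the control channel (blue) of replicate 1 (circles) and replicate 2 (squares), open where the spot was not well above background. The 4 members that were not tested lie near the bottom of the signal range, with levels from 5.83 to 6.20.

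Among the synthesis genes, ME1 was lower in RNA from DFM-fed chickens and was the only 1 of the 5 tested members that passed the test, against 10.5% of all tested probes called lower. ME1 is the cytosolic malic enzyme, which turns malate into pyruvate and yields NADPH, the reductant used by fatty acid synthase. Its probe lies on chromosome 3 at 76257967 to 76258026 of the array design's build (galGal2, plus strand). The ME1 level was 7.80 and 7.82 with DFM on replicates 1 and 2, and 8.50 and 8.53 in the controls. Both DFM values lay below both control values, a separation in this direction that 33.9% of all tested probes showed. The log2 ratio of DFM over control was -0.70 on replicate 1 and -0.71 on replicate 2. The mean was -0.70 (SE 0.12, 95% interval -0.99 to -0.42, limma adjusted p = 0.0058, n = 2 arrays), a level 1.63-fold lower with DFM, and 3.18% of all tested probes had a lower mean ratio. The authors' scanner output gave ME1 log2 ratios of -1.04 and -0.92, with p-values of 4.615e-06 and 3.19e-05 from its error model within each array. The scanner's p was under 0.01 and the ratio lower with DFM on both arrays for 10.2% of tested probes.

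The ME1 ratio turned positive under spike-in centring, at 1.33 (limma adjusted p = 0.135), where it was 0.73 log2 units below the median of all tested probes. With median centring it was -0.75 and no longer passed (limma adjusted p = 1), a setting under which 117 of the 18242 probes were called in either direction.

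ACLY, ATP citrate lyase, splits citrate into acetyl-CoA and oxaloacetate and so supplies the carbon for synthesis. The array design gives its probe no genome position. ACLY levels were 6.14 and 6.34 with DFM and 6.87 and 6.56 in the controls, so both DFM values again lay below both control values. The size of the difference was not shared by the arrays. The log2 ratio was -0.73 on replicate 1 and -0.21 on replicate 2, and the mean of -0.47 (SE 0.15, 95% interval -0.82 to -0.12, n = 2 arrays) missed the threshold (limma adjusted p = 0.0571). The signal was low, from 75.9 to 109 intensity units, against at most 68.9 on any of the 153 negative control spots of either array. ACLY passed with a background offset of 0 (-1.09, limma adjusted p = 0.0197) and in 2 fits to fewer probes, and under spike-in centring its ratio was 1.62 (limma adjusted p = 0.0745).

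ELOVL6 elongates palmitate to stearate. Its probe lies on chromosome 4 at 58502389 to 58502447 (galGal2, plus strand). The levels were 8.95 and 8.70 with DFM and 9.06 and 8.77 in the controls, so the groups overlapped and the 2 arrays differed by more than the groups did. The ELOVL6 log2 ratio was -0.11 and -0.07, with a mean of -0.09 (SE 0.12, 95% interval -0.37 to 0.19, limma adjusted p = 0.629). It was 1.96 under spike-in centring (limma adjusted p = 0.0421), which is 0.10 below the median of all tested probes.

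The 3 remaining synthesis genes include both enzymes of the central steps, and their signals were at, or just above, those of blank control spots. FASN, fatty acid synthase itself, has its probe on chromosome 18 at 4747376 to 4747435 (galGal2, plus strand). Its spot signals were 63.8 and 68.4 intensity units with DFM and 72.4 and 73.1 in the controls. The negative control spots reached 66.2 and 66.7 in the DFM channels and 68.9 and 64.4 in the control channels, so 3 of the 4 FASN signals lay above the brightest of them. The FASN levels were 6.02 and 6.08 with DFM and 6.19 and 6.20 in the controls, with both DFM values lower. The log2 ratios were -0.17 and -0.11. With 3 of the 4 channels not well above background, no fold is given and no test was made.

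ACACA, acetyl-CoA carboxylase alpha, makes malonyl-CoA. Its probe on chromosome 19 at 8064301 to 8064360 (galGal2, minus strand) gave 69.6 and 67.9 intensity units with DFM and 65.6 and 65.1 in the controls. The ACACA levels were 6.16 and 6.02 with DFM and 6.09 and 6.08 in the controls. These groups overlapped, the log2 ratios were 0.07 and -0.06, and no fold is given. SCD, the desaturase that turns stearate into oleate, has its probe on chromosome 6 at 16673509 to 16673570 (galGal2, minus strand). Its signals of 61.0 and 59.95 with DFM and 61.9 and 60.9 in the controls lay below the brightest negative control spot in every channel. SCD was thus not well above background, and a difference between the groups was not detectable at this signal.

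ACSL1 joins long-chain fatty acids to coenzyme A, the step before both storage and oxidation. Its probe lies on chromosome 4 at 40079484 to 40079544 (galGal2, plus strand). The ACSL1 levels were 7.98 and 7.78 with DFM and 8.25 and 7.87 in the controls, which overlap across arrays although the DFM channel was the lower one on each array. The log2 ratio was -0.26 on replicate 1 and -0.09 on replicate 2. The mean of -0.18 (SE 0.13, 95% interval -0.47 to 0.11) did not pass (limma adjusted p = 0.34), and it was 1.88 under spike-in centring (limma adjusted p = 0.0463).

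Of the oxidation genes, ACADL was bright and close to equal in the groups. ACADL is the long-chain acyl-CoA dehydrogenase, which starts a round of mitochondrial beta-oxidation. Its probe lies on chromosome 7 at 2693914 to 2693973 (galGal2, minus strand). The ACADL levels were 15.12 and 15.05 with DFM and 14.94 and 15.09 in the controls, and the groups overlapped. The log2 ratio was 0.18 on replicate 1 and -0.03 on replicate 2, and the mean of 0.07 had a 95% interval of -0.22 to 0.37 (SE 0.13, limma adjusted p = 0.712). That interval leaves room for a difference of either sign, and under spike-in centring the ratio was 2.23 (limma adjusted p = 0.0362), or 0.17 above the median of all tested probes.

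CPT1A, the carnitine palmitoyltransferase of the outer mitochondrial membrane that malonyl-CoA inhibits, was at background. Its probe, named from a cDNA clone record, lies on chromosome 5 at 13995165 to 13995224 (galGal2, minus strand). The signals were 59.1 and 61.9 intensity units with DFM and 62.7 and 66.2 in the controls, and 1 of the 4 lay above the brightest negative control spot of its channel. The CPT1A log2 ratios at this signal were -0.14 and -0.09. CPT1A could thus not be compared between the groups on these arrays.

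**Figure D2:**
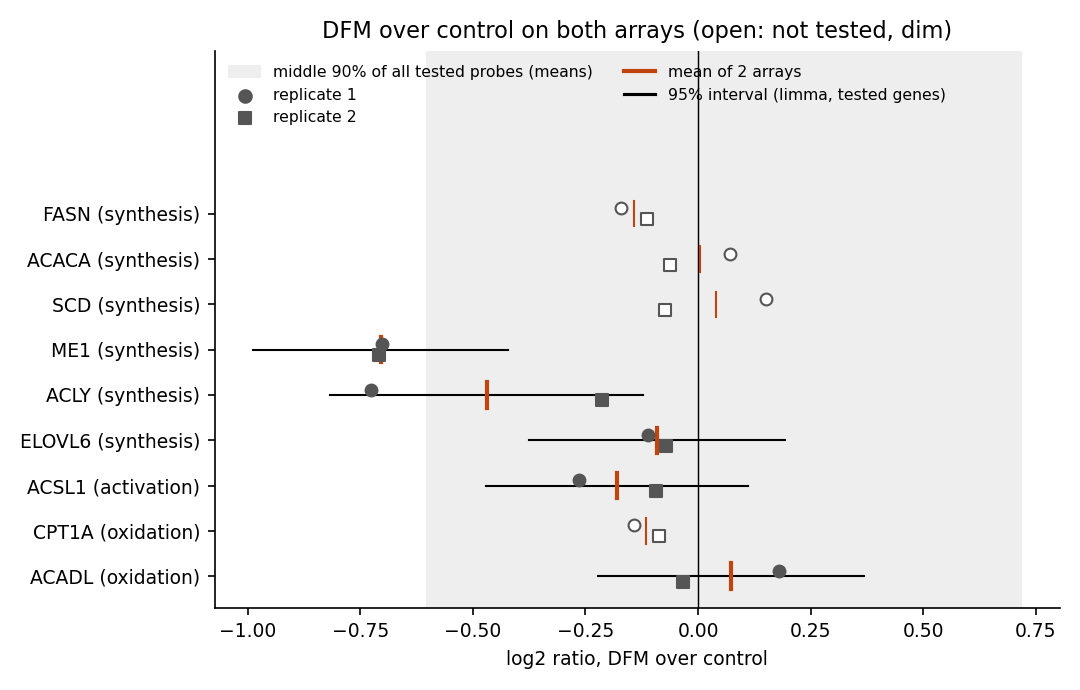
Log2 ratio of DFM over control for the 9 members, with points for the 2 arrays (open where not tested), a tick for their mean, the 95% interval from limma for the 5 tested members, and the middle 90% of all tested probes in grey. ME1 and ACLY have intervals below 0 relative to the average probe, only ME1 passed after adjustment, and under spike-in centring both ratios are above 0.

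Set side by side, the 3 tested synthesis members had log2 ratios of -0.70, -0.47 and -0.09, and the 1 tested oxidation member had 0.07. ME1 alone passed among the former and the oxidation side had no call. With ACADL as its one measured gene, the oxidation side of the members rests on a single probe, and no test of synthesis against oxidation was made over them. The ratio was below 0 on both arrays for 4 of the 5 tested members (ME1, ACLY, ELOVL6 and ACSL1), as it was for 38.2% of all tested probes, and under spike-in centring for none. The median over the 5 tested members was -0.18 (-0.26 on replicate 1 and -0.09 on replicate 2), beside 0.00 over all tested probes and -0.08 over the 6149 tested genes with a name, where the probes of a gene were averaged, as in the lists below. Among the 6783 tested probes of those genes 14.2% were called lower and 8.15% higher.

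**Figure D3:**
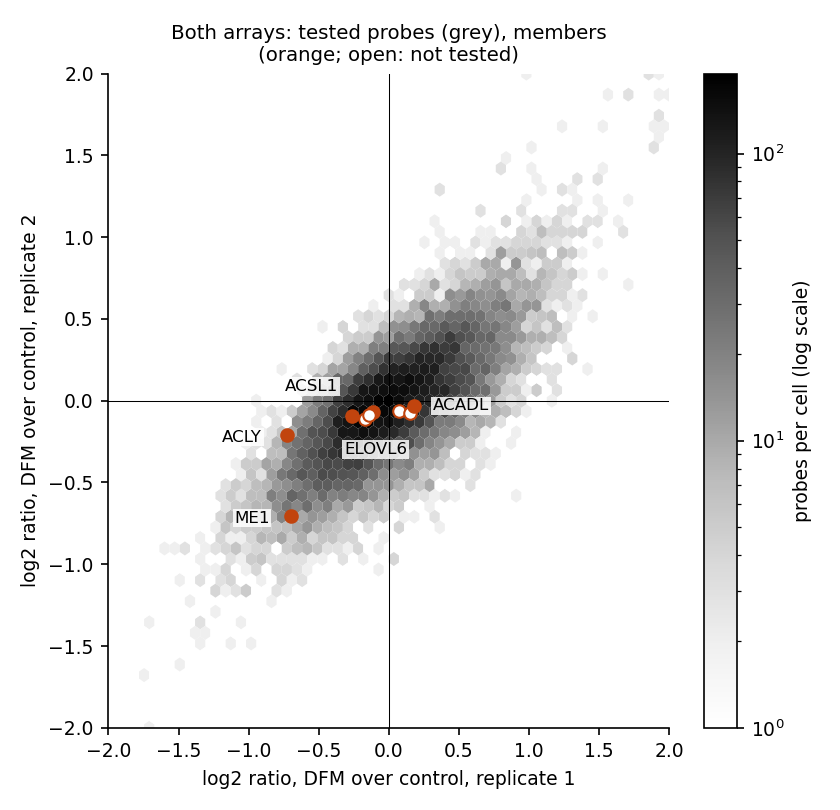
Log2 ratio of DFM over control on replicate 1 (horizontal) and replicate 2 (vertical) for all tested probes in grey, except 187 beyond 2 on either axis. The tested members are filled in orange and the others are open. ME1 lies on the diagonal at -0.70 and -0.71, ACLY far off it at -0.73 and -0.21, and the other tested members lie near 0. The open members (FASN, ACACA, SCD and CPT1A) were at or near background and are drawn with the offset of 50. With a normexp offset of 0 their mean ratios were -0.52, -0.0078, 0.25 and -0.54. Positions are relative to the average probe, and spike-in centring puts all 5 tested members above 0.

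The wider pathways gave more measured genes. Of 28 other genes of fatty acid synthesis and NADPH supply, 12 were named on the array and 7 were tested with 1 probe each. In this list 3 probes were lower with DFM, none was higher (1 was, at an unadjusted p of 0.05 in limma), and the median log2 ratio was -0.22. That median is the value of HACD4, a dim probe (mean level 6.36) tested because the control channels passed the filter. Without a filter on signal the median of the list was -0.0174. PGD, the phosphogluconate dehydrogenase that yields NADPH in the pentose phosphate pathway, was -1.36 on replicate 1 and -0.78 on replicate 2, with a mean of -1.07 (SE 0.16, limma adjusted p = 0.0028). HACD3, annotated as a dehydratase of very-long-chain fatty acid elongation, had a mean of -0.69 (SE 0.13, limma adjusted p = 0.0075). THRSP, a thyroid hormone responsive protein tied to lipogenesis in chickens and mammals, had a mean of -0.43 (SE 0.12, limma adjusted p = 0.0407). PGD and ME1 both make NADPH, and both were lower on each array relative to its average probe, although no probe of the list was called lower under spike-in centring.

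Of 33 other genes of fatty acid oxidation, 21 were named and tested, with 23 probes. For 8 of these probes (34.8%) the level was lower with DFM and for 1 (4.35%) it was higher, with a median log2 ratio of -0.30. CROT, which makes carnitine esters of medium-chain acyl-CoA in peroxisomes, had a mean of -0.85 (SE 0.13, limma adjusted p = 0.0029). ACAD9, an acyl-CoA dehydrogenase that also serves in the assembly of respiratory complex I, had a mean of -0.79 (SE 0.13, limma adjusted p = 0.0036). HADHA, the alpha subunit of the mitochondrial trifunctional protein, was -0.97 on replicate 1 and -0.57 on replicate 2, with a mean of -0.77 (SE 0.14, limma adjusted p = 0.0070). ACAD11, HSD17B4, EHHADH, DECR1 and 1 of 2 ACOX2 probes were also lower, and HSD17B4, EHHADH and ACOX2 code for peroxisomal enzymes. No call was made for HADHB, the beta subunit of the trifunctional protein (-0.29 and -0.05, mean -0.17, limma adjusted p = 0.375). The gene that was higher was ETFA, which codes for a subunit of the electron carrier that accepts electrons from the acyl-CoA dehydrogenases (mean 0.50, SE 0.13, limma adjusted p = 0.0269). The share called lower was thus above that of named probes in both wider lists, 42.9% for synthesis and 34.8% for oxidation against 14.2%. With 7 and 23 probes these shares are descriptions, with no test of either list or of their difference. The lists were also chosen with earlier results of these data known. With the scanner's own ratios, 0 probes of the synthesis list and 1 of the oxidation list were called lower (4 and 7 at an unadjusted p of 0.05 in limma), and with median centring the counts were 0 and 0 (0 and 0 unadjusted).

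**Figure D4:**
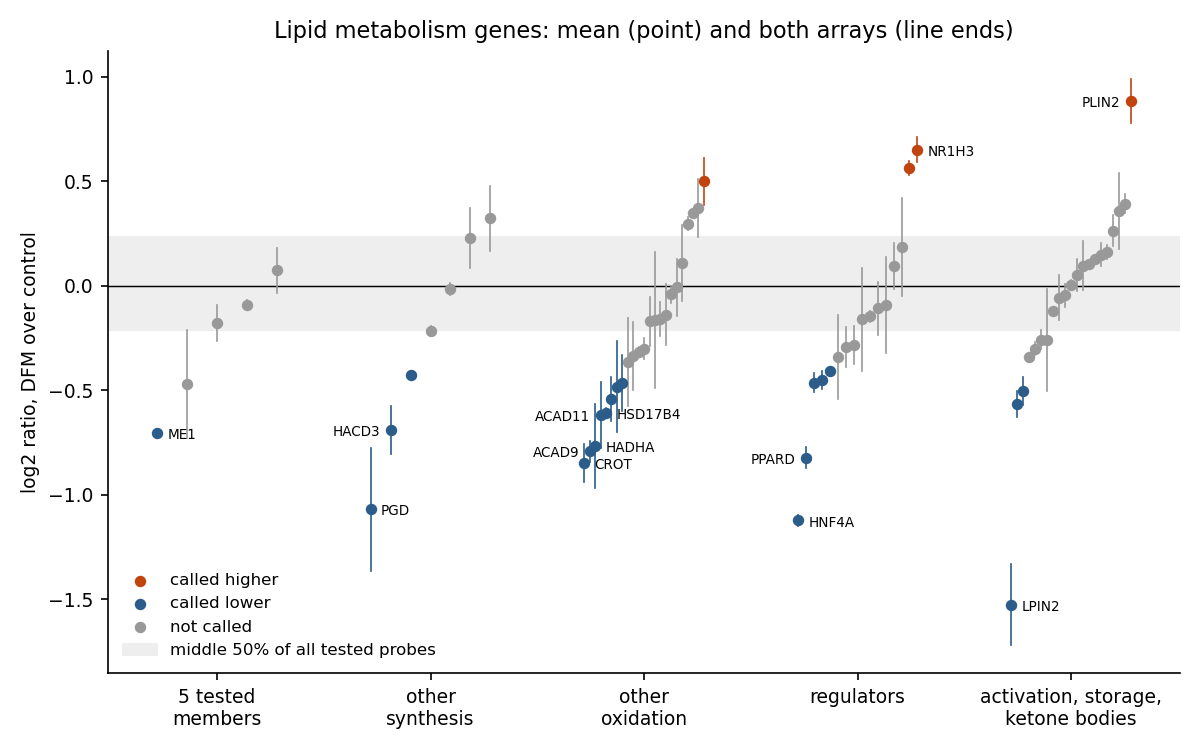
Mean log2 ratio of DFM over control (points) with the values of both arrays (line ends) for every tested probe of the members and of the 4 wider lists, coloured by limma call and set beside the middle 50% of all tested probes (grey band). Relative to the average probe, lower calls outnumber higher ones in each list, as they do among all named probes (961 against 553), while under spike-in centring no probe of any list was called lower and under median centring none was called at all.

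Among 29 regulators of these pathways, 16 were tested, of which 5 were lower (31.2%) and 2 higher (12.5%) with DFM, beside 14.2% and 8.15% of all named probes. With the scanner's own ratios 1 was lower and 0 higher (7 and 2 at an unadjusted p of 0.05 in limma), and with median centring 0 and 0 (0 and 0 unadjusted). HNF4A, a nuclear receptor of liver and gut epithelium, had log2 ratios of -1.10 and -1.15 and a mean of -1.12 (SE 0.12, limma adjusted p = 0.0006). PPARD, a fatty acid sensing nuclear receptor that activates oxidation genes, had a mean of -0.82 (SE 0.13, limma adjusted p = 0.0030), and PRKAG2, a gamma subunit of the AMP-activated kinase, had a mean of -0.46 (SE 0.13, limma adjusted p = 0.0310). NFYC and PRKAA1 were the other lower genes. NR1H3, the oxysterol receptor LXR alpha that activates lipogenic genes, was higher, with ratios of 0.71 and 0.59 and a mean of 0.65 (SE 0.13, limma adjusted p = 0.0084). MID1IP1, which in mice binds acetyl-CoA carboxylase and promotes its polymerisation, was also higher (mean 0.56, SE 0.12, limma adjusted p = 0.0147).

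The sterol response factors, which drive lipogenic and cholesterol genes, gave no call. SREBF1 was well above background in 1 of 4 channels and has no test. SREBF2 had ratios of 0.14 and -0.32, of opposite sign, and a mean of -0.09 (limma adjusted p = 0.683). INSIG1 and INSIG2, which hold the sterol response factors in the endoplasmic reticulum, had means of -0.29 and -0.28 (limma adjusted p = 0.134 and 0.147). PPARA, the activator of hepatic fatty acid oxidation, had ratios of -0.54 and -0.14 and a mean of -0.34 (limma adjusted p = 0.119). PPARGC1A was at background in all 4 channels.

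Of 44 genes of fatty acid uptake, activation, storage and ketone body metabolism, 19 were tested with 21 probes, and 3 probes were lower (14.3%), 1 higher (4.76%) and 17 without a call, with a median of 0.03. The share called lower was close to the 14.2% of all named probes, and median centring left 0 calls in either direction (1 lower and 0 higher at an unadjusted p of 0.05 in limma). LPIN2, a phosphatidate phosphatase on the way to triglyceride, had the lowest ratio of any probe in the 4 wider lists, -1.72 on replicate 1 and -1.33 on replicate 2 (mean -1.53, SE 0.14, limma adjusted p = 0.0002). ACSL4 and ACSL3, which activate fatty acids as ACSL1 does, had means of -0.57 and -0.50 (limma adjusted p = 0.0151 and 0.0236). PLIN2, a coat protein of lipid droplets, was higher, with ratios of 0.99 and 0.78 (mean 0.88, SE 0.13, limma adjusted p = 0.0025).

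The labelled cell type and other cells were checked by their markers. Among all named probes that were tested, 14.2% were called lower and 8.15% higher. A summed signal follows the brightest probes where a list has bright ones, such as that for HBBA among the red cell markers. Every probe adds to the sum, also one at background, since a background offset of 50 was used. The sums of the adipocyte, hepatocyte, and smooth muscle and stroma lists thus hold much background and do not measure cell content. Of 8 probes for T cell markers 5 were well above background in all 4 channels, as were 12 of 14 probes for enterocyte markers. Of 12 tested probes for enterocyte markers, which stand for 8 genes, 7 were lower with DFM and none higher, with SI and FABP2 at background. The lower ones were the 4 APOB probes, APOA4 (-0.30 on replicate 1 and -1.50 on replicate 2), EPCAM and the dimmer ANPEP probe (mean -1.70). The brighter ANPEP probe, FABP1, CDX2 and APOA1 had means of 0.37, 0.53, 0.37 and 0.23, and VIL1 had -0.24, all without a call. The summed enterocyte signal was 509298 and 649623 with DFM against 566179 to 691459 in the controls. Of 7 tested T cell marker probes 1 was lower (CD3D) and none higher, with PTPRC at background. The summed T cell signal was 31459 to 36997 with DFM and 48791 to 49990 in the controls, mostly from the CD3D probe. That probe had levels of 15.05 and 14.81 with DFM and 15.49 and 15.47 in the controls. No call was made for CD3E, CD247, CD8A and ZAP70 (means -0.47, -0.33, -0.12 and -0.21) or for LCK and CD4 (0.06 and 0.32). Of 12 probes for exocrine pancreas 5 were well above background in all 4 channels and were higher with DFM, 4 were tested because the DFM channels passed the filter, and 3 were at background (those for PRSS2 and PRSS3 among them). The summed signal was 21525 to 22044.5 with DFM against 1389 to 1412. Of the adipocyte markers 1 of 3 tested probes was lower (summed signal 494 to 496 against 653 to 735, LEPR at background). Of the hepatocyte markers 1 of 3 was higher, that for ALB (626 to 798 against 569 to 585). FGA, TTR, CYP7A1 and AHSG were at background. ALB was tested because the DFM channels passed the filter. For smooth muscle and stroma 2 of 4 tested probes were lower, those for POSTN and MYH11 (means -1.15 and -0.77). MYH11 was tested because the control channels passed the filter. COL1A2 and ACTA2 had means of -0.39 and -0.27 without a call. The summed stroma signal was 541 to 607 with DFM against 854 to 883, with DES at background. For red cells 2 of 4 tested probes were lower, those for HBBA and CA2 (means -0.77 and -1.13). No call was made for the tested HBA1 probe (0.89 and -0.56, of opposite sign) or for EPB42 (mean -0.35). The summed red cell signal was 43311 to 47156 against 68128 to 77493, with HBZ at background. The part of these markers in the ratios of ME1, HNF4A and the oxidation genes was not tested.

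**Figure D5:**
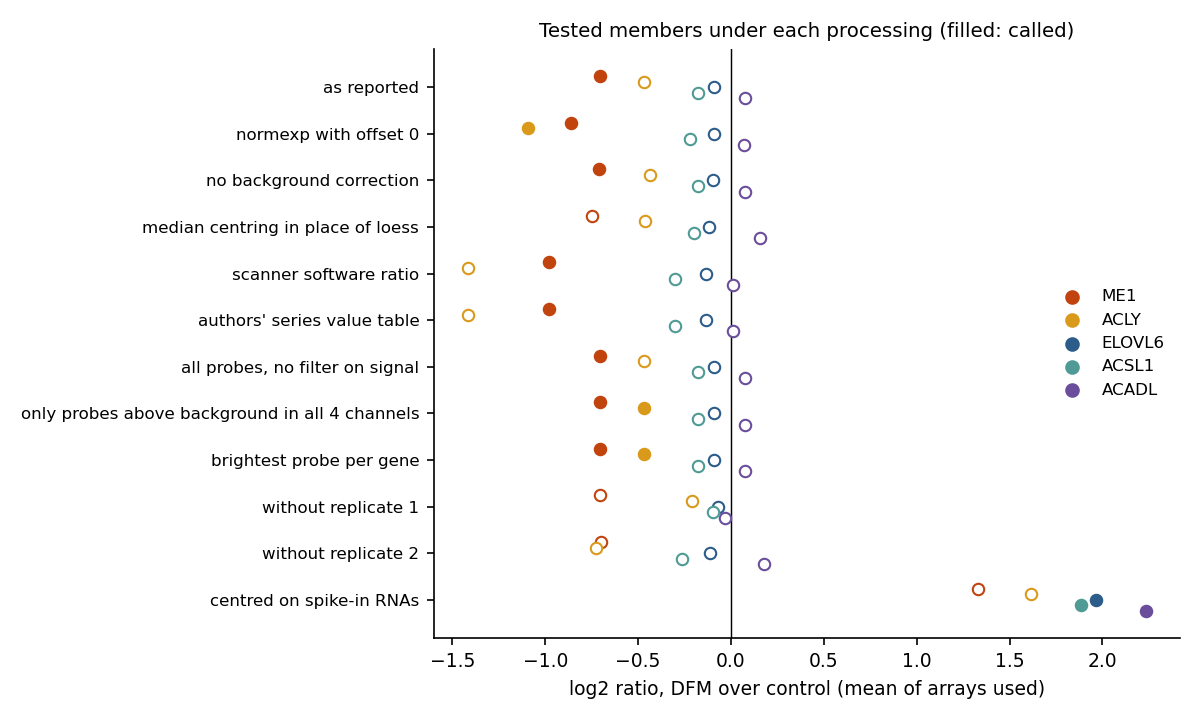
Log2 ratio of DFM over control for the 5 tested members under each alternative processing, with filled points where the probe passed an adjusted p of 0.05 in limma and open points where it did not or, with 1 array left out, had no test. ME1 stayed between -0.98 and -0.70 and ACADL between -0.03 and 0.18 in all settings except spike-in centring, which moved all 5 above 0.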

How the data were processed

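Each deposited scanner file gives, for both dyes, the mean intensity of a spot and the median intensity of its local background, per the file headers. The deposited scanner output also holds a log10 ratio of Cy5 over Cy3 and a p-value from an error model within 1 array. The authors' series table holds log2 values, which equalled the log2 ratio of the scanner's processed signals, DFM over control, to within 1.41e-05 on 42034 probes. Its column medians over all 42034 probes were -0.274 and 0.204. Over the 18242 tested probes, the median of the mean ratio in that table was -0.045. The processing notes of the submitters name Feature Extraction 10.7.3.1 and the file headers name 9.5.3.1.

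In R 4.3.3 with limma 3.58.1, intensities were corrected by normexp (offset 50), normalized by loess within arrays with control spots at weight 0, and turned to DFM over control. A probe was tested when well above background on both arrays in at least 1 group. The 23787 probes that were not so, and 5 probes flagged as outliers, were left out. The limma test was two-sided, with Benjamini-Hochberg adjustment over 18242 probes and n = 2 arrays. The fit had 1 residual degree of freedom and 7.52 prior degrees. Channel levels were taken after loess and Aquantile normalization. The number of arrays limits the precision.

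Probes were named from the files and, through accessions and symbols, from a RefSeq gene table (GRCg7b), whose coordinates were not used. It named 10348 of 42034 probes. All members were named in the text with every probe, and from each wider list the 3 largest called changes in each direction and a set of regulators. Likeness of patterns and promoter motifs were not analysed here. The members and lists were chosen with earlier results of these data known. The fit was also run on simulated ratios with known changes and independent errors, drawn from its own estimated variances. That run checks the computation and cannot show whether these assumptions hold for the arrays. In all, 11 alternatives were run, and none was added later.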

Additional observations from a re-analysis of the deposited data

How the results depend on the processing

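Relative to the average probe, ME1, ACLY, ELOVL6 and ACSL1 kept their sign under every alternative except spike-in centring. With 1 array left out no test is possible, and the ranges were -0.71 to -0.70 for ME1, -0.73 to -0.21 for ACLY, -0.11 to -0.07 for ELOVL6, -0.26 to -0.09 for ACSL1, -0.03 to 0.18 for ACADL and -0.29 to -0.16 for the median of the other oxidation genes. With a normexp offset of 0, 2 members were called lower (ACLY -1.09, limma adjusted p = 0.0197). The other oxidation genes then had 0 probes higher (2 at an unadjusted p of 0.05) and 4 lower, the regulators 1 higher and 3 lower, and the activation and storage genes 2 higher. The medians were -0.86 for the synthesis members and -0.61 for the other synthesis genes. With median centring the fit called 109 probes higher and 8 lower, and 0 of the members and of the 4 wider lists in either direction (1 probe lower at an unadjusted p of 0.05), with ME1 at -0.75 (limma adjusted p = 1). With the scanner's ratio, and equally with the authors' series table, 1179 probes were called higher and 951 lower. The other synthesis genes then had 0 lower (4 unadjusted), the other oxidation genes 0 higher and 1 lower (0 and 7 unadjusted), the regulators 0 higher and 1 lower (2 and 7 unadjusted), and the activation and storage genes 0 higher (2 unadjusted). The medians were -0.98 for the synthesis members and -0.72 for the other synthesis genes. Without a filter on signal (42029 probes), 2 activation and storage probes were higher, and the medians were -0.12 for the synthesis members and -0.0174 for the other synthesis genes. With 15788 probes above background in all 4 channels, and with 6149 genes at their brightest probe, 2 members were called lower (ACLY -0.47, limma adjusted p = 0.0423 and 0.0288). The latter fit called 629 genes higher and 1088 lower, and 2 activation and storage genes higher. With spike-in centring 13962 probes were called higher and 0 lower, with 3 members, 4 other synthesis, 11 other oxidation, 8 regulator and 15 activation and storage probes higher and 0 lower (0 unadjusted). The medians were 1.62 for the synthesis members, 2.23 for the oxidation member, 1.88 for the other synthesis and 1.78 for the other oxidation genes. The ratios were 1.33 for ME1, 1.62 for ACLY, 1.96 for ELOVL6, 1.88 for ACSL1 and 2.23 for ACADL (limma adjusted p = 0.135, 0.0745, 0.0421, 0.0463 and 0.0362). Causes were not tested. The main limits are that FASN, ACACA, SCD and CPT1A were too dim to test and that 2 arrays of 1 slide carry every value.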

Other observations

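Different probes of 1 gene did not always go the same way. SLC27A4, a fatty acid transport protein, had probes at 0.39 and -0.34 (limma adjusted p = 0.0539 and 0.0827). Each of the SLC27A4 probes kept its sign on both arrays. ACOX2, a peroxisomal oxidase of branched-chain acids and bile acid precursors, had 1 probe at -0.48 that passed (limma adjusted p = 0.0442) and another with -0.49 on replicate 1 and 0.16 on replicate 2.

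Another 2 probes carry a member's symbol in their description in another sense and were set apart. A probe on chromosome 6 at 16032019 to 16032078 (galGal2) is described by partial similarity to an Elovl6 protein of another species, while the ELOVL6 probe lies on chromosome 4. The other has a myosin entry whose name ends in ACACA. Neither was well above background in any of the 4 channels.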
